A study of Mus musculus with 4 samples.

Results

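The 10 genes described here carry the retinoic acid signal or set its strength: the retinoic acid receptors Rara, Rarb and Rarg, the retinoid X receptors Rxra and Rxrb, the binding proteins Crabp1 and Crabp2, the enzymes Dhrs3 and Cyp26b1, and the retinol importer Stra6. They were taken by gene symbol from a table of read counts for 56748 genes, and all 10 had a row of their own. Poly(A)-selected RNA was counted in 4 libraries of HT22 cells, an immortalised line of mouse hippocampal neurons. A control line gave 2 libraries, and a line overexpressing MEIS2, a homeodomain transcription factor, gave the other 2. The vector, the number of clones and the culture medium, which would set the retinoid supply, are not stated in the sources used here. Whether a line was cultured more than once is not stated either, so p-values reflect only how these libraries vary, which may be technical variation.

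Retinol enters cells through STRA6 and is oxidised through retinaldehyde to retinoic acid. DHRS3 turns retinaldehyde back to retinol, and enzymes of the CYP26 group degrade retinoic acid. CRABP proteins carry the acid in the cytosol, CRABP2 towards the nucleus. There a RAR bound to an RXR sits on direct repeats in DNA, holds corepressors without ligand and recruits coactivators with it. Rarb, Crabp2, Dhrs3, Cyp26b1 and Stra6 are known to be induced by retinoic acid, as is Meis2 itself, which was found in a screen for such genes in mouse embryonal carcinoma cells.

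The receptor element can be read in the promoter of Rarb, which is shown because that gene is the textbook direct target of its own receptor family. Promoter windows of RefSeq on GRCm38.p6, running from 250 bases before to 50 bases after a start site, were found for 9 of the 10 genes, 20 windows in all. The first window below is that of Rarb (chr14:16575427-16575726, minus strand) and the second the upstream one of Rxrb (chr17:34031562-34031861, plus strand), the gene with the lowest p between the lines. Capitals mark retinoid half-sites, spelled AGGTCA in the consensus form, with AGTTCA as a common variant of it and with GGTTCA as another one, and the core motif of MEIS proteins, TGACAG. Both strands were searched, and the capitals in Rxrb are the MEIS core on the other strand.
Rarb promoter: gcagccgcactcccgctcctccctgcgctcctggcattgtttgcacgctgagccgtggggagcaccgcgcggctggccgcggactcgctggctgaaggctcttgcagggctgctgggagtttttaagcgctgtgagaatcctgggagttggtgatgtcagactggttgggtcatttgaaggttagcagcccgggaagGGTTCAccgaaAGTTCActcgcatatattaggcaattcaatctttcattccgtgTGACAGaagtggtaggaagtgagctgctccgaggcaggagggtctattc
Rxrb promoter: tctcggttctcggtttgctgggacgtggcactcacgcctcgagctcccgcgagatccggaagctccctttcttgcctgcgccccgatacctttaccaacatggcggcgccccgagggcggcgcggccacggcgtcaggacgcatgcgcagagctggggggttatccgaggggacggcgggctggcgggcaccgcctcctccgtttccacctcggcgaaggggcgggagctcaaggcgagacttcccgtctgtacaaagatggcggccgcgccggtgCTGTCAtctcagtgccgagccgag
In Rarb, GGTTCA begins 53 bases before the start site and AGTTCA 42 bases before it, and together they form a direct repeat with 5 bases between its parts. A repeat of any 2 of these half-sites with that spacing was found in 0.0609% of 32851 promoter windows of the mouse genome, and in 1 of the 20 windows of these genes. Only this spacing was searched, with variants that include both parts of the Rarb repeat, so these shares are no test of enrichment. Single half-sites, which overlap with the repeat where it occurs, were found in 6 of the 20 windows, against 35% of all windows. The MEIS core was in 3 of the 20, those of Rarb, Rxrb and 1 of Rara, against 19.2% of all windows. A match describes letters and is not evidence of binding.

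The libraries were first checked against their labels. Meis2 counts were 245 and 319 in the control libraries, against 5182 and 5571 in the MEIS2 line. Total counts ran from 15014017 to 16903967, so that 3 counts, used as a floor for detection, were worth 0.179 to 0.195 CPM (counts relative to the library total, scaled between libraries by TMM). Such floors and the intervals on counts below cover counting error only. Of 10 neuronal markers, 6 had 0 counts in all libraries (Rbfox3, Snap25, Nefl, Nefm, Dcx and Prox1), and the list summed to 24.3 to 31.3 CPM in the control libraries, against 26.6 and 30.6 CPM in the MEIS2 line. Of 8 fibroblast markers, 2 had 0 counts (Thy1 and Lum), and the list summed to 480.0 and 499.4 CPM in the control libraries, against 561.7 and 739.4 CPM in the MEIS2 line. Lists for astrocytes and oligodendrocytes, for microglia and blood, and for endothelium each summed to at most 1.43 CPM. The part of these markers in the results was not tested.

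Expression within the group was concentrated in Rarg, Rxrb, Rxra, Rara and Dhrs3, while the receptor Rarb was among the scarce genes. Per kilobase of gene length, Rarg was the most abundant with a mean over the 4 libraries of 53.1 ± 8.29 CPM per kb (SD, n = 4), above 90.9% of the 12802 genes tested. It was followed by Rxrb (37.2 ± 11.4 CPM per kb), Rxra (14.5 ± 2.13 CPM per kb), Rara (12.5 ± 1.27 CPM per kb) and Dhrs3 (5.84 ± 1.17 CPM per kb), the last near the middle of the genes tested, above 50.8% of them. Rarg and Rxrb overlapped in range over the libraries, as did Rxra and Rara, although in both pairs the first gene was the higher in each of the 4 libraries. A wide step separated Dhrs3 from the other 5 genes, all of which had a mean of 0.300 CPM per kb or less. Among these, Crabp2, Cyp26b1 and Rarb overlapped in range. Stra6 lay below Rarb in every library at 0.0699 ± 0.0152 CPM per kb, and Crabp1 had no counts.

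**Figure D1:**
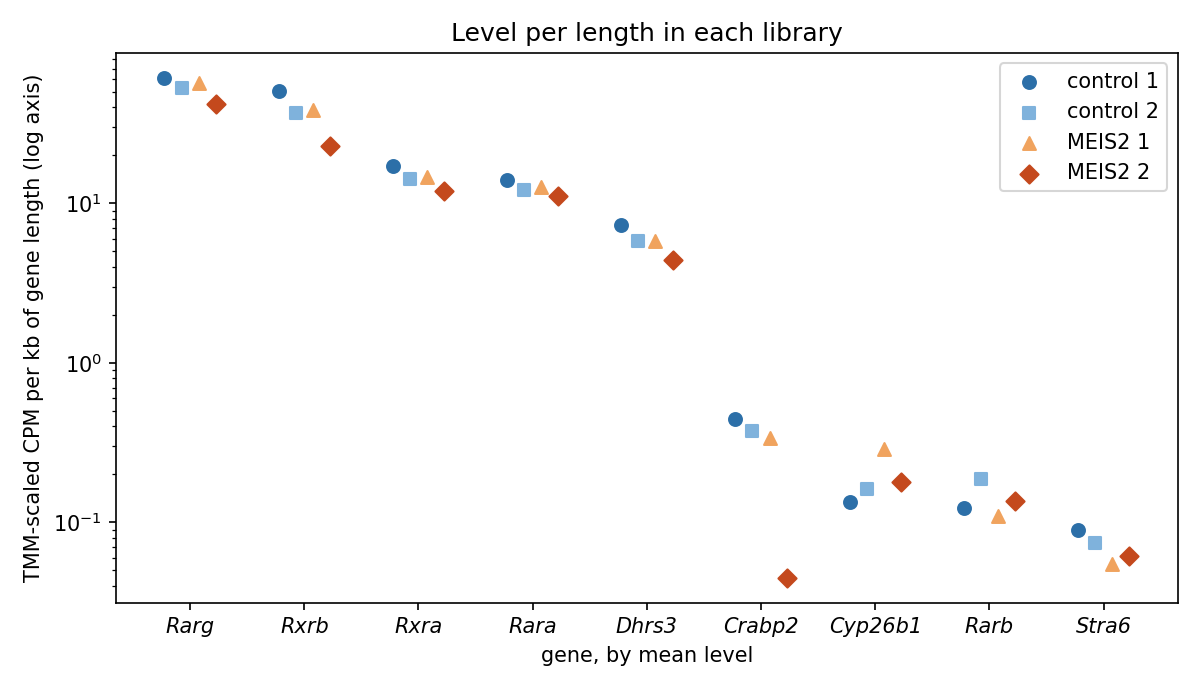
Level of 9 of the 10 genes in each library, as TMM-scaled CPM per kilobase of gene length on a log axis, with genes ordered by their mean and 1 point per library. Crabp1, with 0 counts, cannot be drawn; the 5 genes on the left lie above 4.44 CPM per kb in every library and the 4 on the right below 0.444.

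No gene of the group passed the test between the lines. In edgeR's quasi-likelihood test, p-values were adjusted over all 12802 genes tested. Of the 7 genes with enough counts, 0 had an adjusted p under 0.05, against 0.00781% of all genes tested. That share is 1 gene, Meis2 itself (adjusted p 6.41e-05 in this test). At an unadjusted p under 0.05 the count among the 7 was also 0, against 10.2% of all genes. By adjusted p it was 0 in DESeq2 (0.86% of the genes to which it gave an adjusted p) and in limma-voom (0.00781%). DESeq2 gave no adjusted p for Rarb and Cyp26b1. The 7 log2 fold changes (MEIS2 minus control) had a median of -0.23, where that of all genes tested was 0.012, with 6 estimates below 0 and 1 above. Library size alone as the scaling moves the median of all genes to 0.17 and that of the 7 genes to -0.082, and turns the estimate of Rara to 0.020. As these are bulk libraries, fewer cells expressing a gene and less RNA per cell cannot be told apart.

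**Figure D2:**
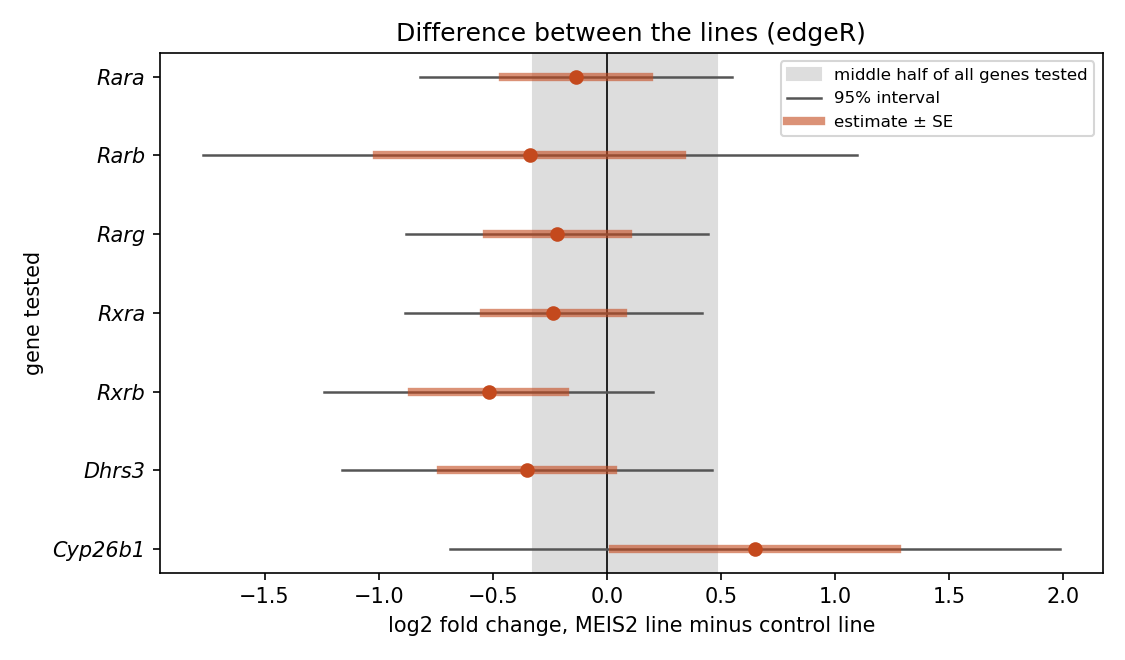
Log2 fold change of the 7 genes tested (points), with its standard error (thick bars) and 95% interval (thin lines); the grey band spans the quartiles of all genes tested, -0.32 to 0.48. Every interval includes 0, and those of Rarb and Cyp26b1, which have few counts, are the widest.

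Among the retinoic acid receptors, Rarg, the isotype known for its roles in skin and skeleton and in maintaining undifferentiated cells, made up most of the message. The gene (ENSMUSG00000001288) is on chromosome 15, minus strand, 102143373 to 102165952, in positions that the count table gives without naming a build. Its normalised level was 260.4 and 226.2 CPM in the control libraries, against 240.8 and 177.6 CPM in the MEIS2 line. MEIS2 replicate 1 lay between the controls and MEIS2 replicate 2 below both. The log2 fold change was -0.22 (SE 0.31, adjusted p 0.774 in edgeR's test) with a 95% interval from -0.88 to 0.44, so that a rise past 1.36-fold or a fall to below 0.544 of the control level lies outside it. Single libraries moved the estimate widely, to -0.059 without MEIS2 replicate 2 and to -0.47 without MEIS2 replicate 1. Rara, the most broadly expressed isotype in mouse tissues, measured 61.5 and 52.7 CPM in the control libraries, against 55.7 and 48.3 CPM in the MEIS2 line. Its groups overlapped as well, with an estimate of -0.13 on the log2 scale (SE 0.32, adjusted p 0.868, 95% interval -0.82 to 0.55), which ran from -0.26 without MEIS2 replicate 1 to -0.027 without control replicate 1.

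Rarb, the isotype whose own promoter carries the direct repeat shown above, had few counts in both lines. The table places it (ENSMUSG00000017491) on the plus strand of chromosome 14 from 5650540 to 6038924, which are not the coordinates of the GRCm38.p6 window above. It had 10 and 16 counts in the control libraries, against 9 and 12 in the MEIS2 line, or 0.652, 0.985, 0.577 and 0.715 CPM. The highest value was that of a control and the lowest that of a MEIS2 library, with the other libraries between them. The log2 fold change was -0.34 (SE 0.67, adjusted p 0.84), and its interval from -1.77 to 1.09 leaves room for a change of 2-fold either way. It stood at -0.021 without control replicate 2 and at -0.61 without control replicate 1. The annotated span of Rarb overlaps by 4624 bases with Top2b on the other strand, whose counts were 229, 329, 320 and 1476 in the same order of libraries. Since the treatment of strand in counting is not given, reads of the shared stretch cannot be assigned between them. At 90% identity over 150 bases or more, Rarb matched transcripts of Top2b, over up to 1433 bases. Apart from Top2b, no other gene's transcripts matched any of the 10 genes at that threshold.

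The balance of the isotypes does not depend on scaling between libraries. Shares in both receptor families were not corrected for the trends of single libraries with gene length and GC content given below. Counted per length, Rarg held 81.1% and 81.2% of the 3 retinoic acid receptors in the control libraries, against 81.5% and 78.8% in the MEIS2 line. MEIS2 replicate 2 stood below the other 3 libraries, with a 95% interval of 77.5% to 80.1% (exact Clopper-Pearson bounds on the counts). The mean difference was -1.06 percentage points (two-sided exact permutation p = 1), which turned to 0.27 without that library. Rarb held between 0.158% and 0.286% of the family in all 4 libraries. An exact test of 2 libraries against 2 cannot give a p under 0.333.

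The retinoid X receptors are the shared partners of the retinoic acid, thyroid hormone, vitamin D and several lipid receptors. Of them Rxrb (ENSMUSG00000039656, chromosome 17, plus strand, 34250786 to 34257373 in the table) showed the lowest p of the group. It measured 201.3 and 146.7 CPM in the control libraries, against 152.5 and 90.4 CPM in the MEIS2 line. MEIS2 replicate 1 lay between the controls and differed little from control replicate 2, while MEIS2 replicate 2 was the lowest of all. The log2 fold change was -0.52 (SE 0.34, unadjusted p 0.145, adjusted p 0.596 in edgeR's test) with a 95% interval from -1.24 to 0.20. It was -0.24 without MEIS2 replicate 2, -0.28 without control replicate 1 and -0.97 without MEIS2 replicate 1, with adjusted p-values of 1, 1 and 0.0756. Rxra, the isotype whose loss in mice is lethal before birth, measured 108.2 and 89.6 CPM in the control libraries, against 92.6 and 75.5 CPM in the MEIS2 line, with an estimate of -0.23 on the log2 scale (SE 0.30, adjusted p 0.755) that ran from -0.41 without MEIS2 replicate 1 to -0.10 without control replicate 1. Rxrg, the third isotype and not one of the 10 genes, had 0 counts in all libraries.

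Within the RXR family, Rxrb held 74.7% and 72.2% per length in the control libraries, against 72.3% and 65.5% in the MEIS2 line, the rest being Rxra. The intervals of control replicate 2 (70.9% to 73.5%) and MEIS2 replicate 1 (71.0% to 73.6%) overlapped, and that of MEIS2 replicate 2 (63.8% to 67.2%) lay below both. The mean difference of -4.53 percentage points had a two-sided exact permutation p of 0.667 and was -1.13 without MEIS2 replicate 2.

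**Figure D3:**
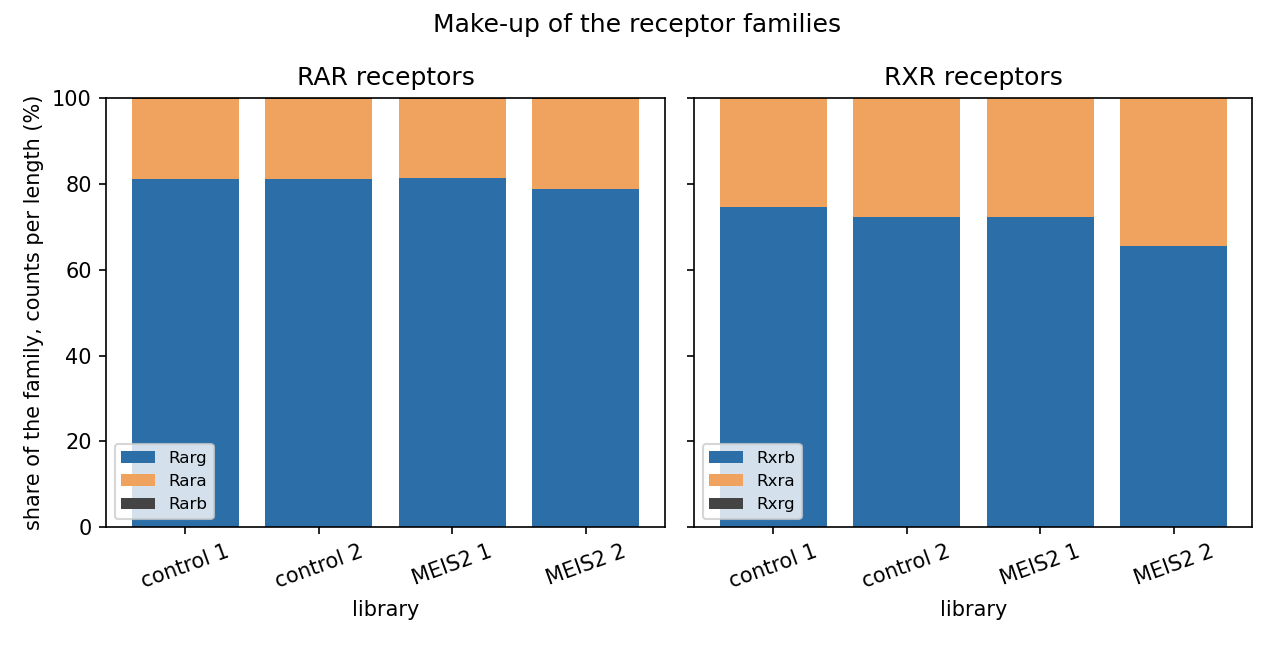
Share of each isotype in the RAR family (left) and the RXR family (right) in the 4 libraries, from counts divided by gene length, with bars stacked to 100%. Rarg makes up 78.8% to 81.5% of the RAR bars and Rxrb 65.5% to 74.7% of the RXR bars; Rarb is too low to see and Rxrg has no counts.

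The enzymes on both sides of retinoic acid differed in level. Dhrs3, the reductase that returns retinaldehyde to retinol, measured 21.4 and 16.9 CPM in the control libraries, against 17.0 and 13.0 CPM in the MEIS2 line. Control replicate 2 and MEIS2 replicate 1 were nearly equal, with control replicate 1 above them and MEIS2 replicate 2 below. The log2 fold change was -0.35 (SE 0.38, adjusted p 0.71 in edgeR's test) and ran from -0.58 without MEIS2 replicate 1 to -0.18 without control replicate 1.

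Cyp26b1, which oxidises retinoic acid for removal and shapes its gradients in the hindbrain and limbs, was the one gene of the 7 with a higher estimate in the MEIS2 line (ENSMUSG00000063415, chromosome 6, minus strand, 84548396 to 84570890 in the table). It had 11 and 14 counts in the control libraries, against 24 and 16 in the MEIS2 line, or 0.717, 0.862, 1.54 and 0.954 CPM. Both MEIS2 libraries lay above both controls, as they did for 22.6% of all genes tested. The 1 gene of 7 is near that share, and 0 of the 7 had both MEIS2 libraries below both controls, against 19.1% of all genes. The log2 fold change was 0.65 (SE 0.62, adjusted p 0.68) with a 95% interval from -0.69 to 1.98, and 0.26 without MEIS2 replicate 1. Exact Poisson intervals of the 2 middle libraries, 0.471 to 1.45 CPM for control replicate 2 and 0.545 to 1.55 CPM for MEIS2 replicate 2, overlapped over most of their length.

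The other enzymes of the CYP26 group, looked up after these values were seen, also had few counts. Cyp26a1 had 1 and 0 counts in the control libraries, against 14 and 6 in the MEIS2 line, which was too few for the test. Cyp26c1 had 7 and 4 counts in the control libraries, against 10 and 16 in the MEIS2 line, with an estimate of 1.18 on the log2 scale (SE 0.75, adjusted p 0.596 in edgeR's test). Both MEIS2 libraries lay above both controls in each of these genes, as they did in the 22.6% of genes tested given above, a set that does not include Cyp26a1.

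The genes for carriage and uptake had 9 counts or fewer in every library. Crabp2, the carrier that hands retinoic acid to RARs, had 9 and 8 counts in the control libraries, against 7 and 1 in the MEIS2 line, or 0.586, 0.492, 0.448 and 0.0596 CPM. The last value is under the floor of 3 counts, and the intervals of the first 3 libraries overlapped widely, from 0.180 to 1.11 CPM in all. Stra6, the receptor that takes retinol from its serum carrier, had 8 and 7 counts in the control libraries, against 5 and 6 in the MEIS2 line. Neither gene had enough counts for the main test. In each, both MEIS2 libraries lay below both controls, as in 19.1% of the genes tested, a set without these genes. With no filter on low counts, Crabp2 was estimated at -1.12 on the log2 scale (adjusted p 0.801) and Stra6 at -0.52 (adjusted p 0.846) in edgeR's test. Crabp1, the carrier known from differentiating neurons, had 0 counts in the 4 libraries. The floor of 3 counts corresponds to at most 0.195 CPM there, and the exact Poisson intervals reach up to 0.220 to 0.240 CPM.

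The 5 well-counted genes shared one pattern over the libraries. Rara, Rarg, Rxra, Rxrb and Dhrs3 were each highest in control replicate 1 and lowest in MEIS2 replicate 2, a pattern found in 28% of all genes tested. Control replicate 2 and MEIS2 replicate 1 differed by at most 0.090 on the log2 scale in these 5 genes. The libraries of 1 line differed more, for Rxrb by -0.46 between the controls and by -0.75 between the MEIS2 libraries (replicate 2 minus replicate 1). Gene length and GC content also differed in their relation to the libraries. Over all genes tested, the deviation of a library from the gene mean had a Spearman correlation with gene length of -0.46 and -0.28 in control replicates 1 and 2 and of -0.087 and 0.485 in MEIS2 replicates 1 and 2, values across genes, which are not independent. With GC content the correlation was 0.507 for control replicate 1 and -0.10 for control replicate 2, against 0.494 and -0.58 for MEIS2 replicates 1 and 2. Both sets of correlations had control replicate 1 and MEIS2 replicate 2 at opposite ends, as the pattern does. Between these ends, MEIS2 replicate 1 lay slightly above control replicate 2 in all 5 genes. By GC content MEIS2 replicate 1 also came next to control replicate 1, whereas by length control replicate 2 did. The part of either trend in the pattern was not tested on its own. The longest transcripts of the 5 genes have a GC content of 52.4% to 61.4%, the latter in Rxrb, against a median of 49.7% over the genes tested. Cyp26b1, which did not share the pattern, has 56.7%. Lengths were 4365 bases for Rara, 4261 for Rarg and 6303 for Rxra, above the median of 4219 over all genes tested. Rxrb (3973 bases) and Dhrs3 (2927 bases) lay below that median. After both trends, on gene length and on GC content, were taken out of every library, the log2 fold changes were 0.078 for Rara, -0.017 for Rarg, -0.22 for Rxra, close to its -0.23 before, -0.31 for Rxrb and -0.25 for Dhrs3. Rarb and Cyp26b1 then stood at -0.56 and 0.71, and 0 of the 7 genes passed.

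**Figure D4:**
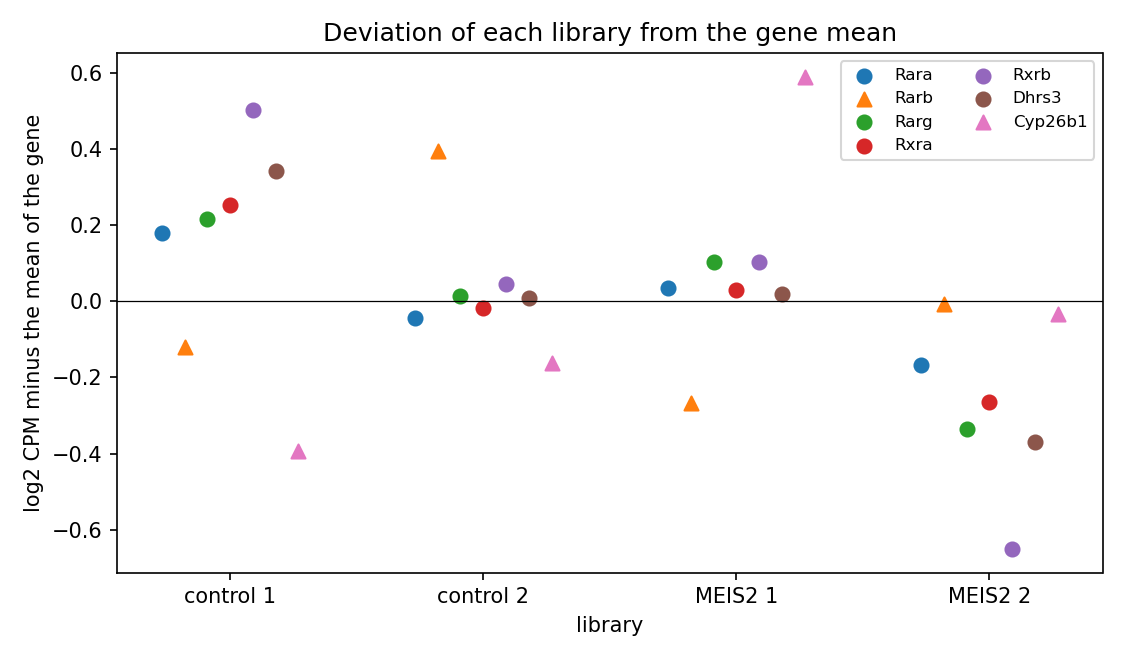
Deviation of each library from the mean of its gene, in log2 CPM with a prior count of 2, for the 7 genes tested. The 5 well-counted genes (circles) are highest in control replicate 1, close to 0 in the middle libraries and lowest in MEIS2 replicate 2, down to -0.65 for Rxrb; Rarb and Cyp26b1 (triangles) are not.

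**Figure D5:**
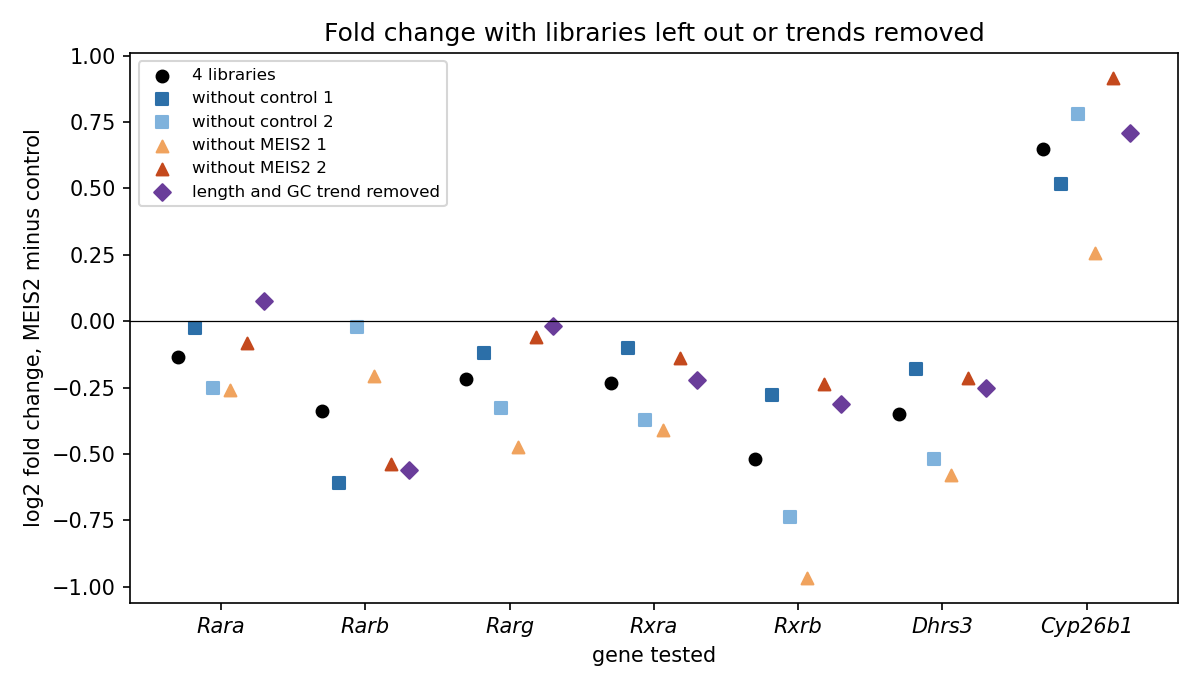
Log2 fold change of the 7 genes with all 4 libraries, with each library left out in turn, and after taking out the length and GC trend. Cyp26b1 stays above 0 and Rarg, Rxra, Rxrb, Dhrs3 and Rarb stay below it under these settings; Rara turns from -0.13 to 0.078 with the trend removed.

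By profile over the 4 libraries, the genes most like Rarg, the most abundant of the group, were Cript, Gna11 and Nomo1, at Euclidean distances of 0.00939 to 0.0239 between centred log2 CPM profiles. Those most like Rxrb, the gene with the lowest p, were Nxn, Cc2d1a and Atp5l, at 0.0111 to 0.0184. With 4 points per profile and 9540 genes to choose from, such close matches describe these libraries only. The median distance was 0.587 for Rarg and 0.922 for Rxrb.

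The wider retinoid pathway was read from 4 further lists. Of 35 genes for retinoid metabolism and transport, 10 had no counts, among them Aldh1a2, Lrat, Rbp4 and Stra6l, and 17 were tested. In edgeR's test 0 passed (0 in DESeq2 and in limma-voom), and 2 of the 17 had an unadjusted p under 0.05, against 10.2% of all genes. Cyp26c1 was among the genes to which DESeq2 gave no adjusted p. The median log2 fold change was -0.16. It came to -0.020 when control replicate 1 was left out, -0.32 when control replicate 2 was, -0.037 when MEIS2 replicate 2 was, and 7.86e-05 with library size alone as the scaling. The most abundant per length was Fabp5, which carries retinoic acid to another nuclear receptor, PPARD, with 170.8 and 135.2 CPM in the control libraries, against 154.0 and 93.4 CPM in the MEIS2 line. Its log2 fold change was -0.31 (SE 0.33, adjusted p 0.707 in edgeR's test), or -0.037 without MEIS2 replicate 2 and -0.73 without MEIS2 replicate 1. The lowest p was that of Lrp2, an endocytic receptor that takes up retinol bound to its carrier, with 6.84 and 9.23 CPM in the control libraries, against 15.4 and 21.8 CPM in the MEIS2 line. The groups did not overlap, and the estimate of 1.21 on the log2 scale (SE 0.40, adjusted p 0.291) became 0.41 once both trends were taken out. Without MEIS2 replicate 1 it was 1.43.

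For the cofactors that receptors exchange on binding their ligand, most estimates lay above 0. Of 21 genes, all tested, 15 had an estimate above 0 and 6 below, against 6518 above and 6284 below over all genes tested, with a median log2 fold change of 0.69. In edgeR's test 0 passed, and 10 of the 21 had an unadjusted p under 0.05, against 10.2% of all genes. DESeq2 called 2 of them (Ep300 and Crebbp, both higher), against 0.86% of the genes to which it gave an adjusted p. Nrip1 was without an adjusted p in DESeq2. With limma-voom 0 were called. The lowest p was that of Crebbp, a coactivator with histone acetyltransferase activity, with 8.80 and 8.12 CPM in the control libraries, against 22.2 and 46.6 CPM in the MEIS2 line. Its log2 fold change was 2.02 (SE 0.42, adjusted p 0.256), which became 1.35 when MEIS2 replicate 2 was left out and 1.39 once the trend was taken out. With MEIS2 replicate 1 left out it was 2.45. Prmt1, an arginine methyltransferase and the most abundant per length, stood at -0.46 (SE 0.36, adjusted p 0.619), or -0.12 without MEIS2 replicate 2 and -1.01 without MEIS2 replicate 1. The genes of this list have a median length of 8528 bases, against 4219 over all genes tested. Over all genes tested the fold change had a Spearman correlation with length of 0.488, and the part of length in the values of this list was not tested on its own. The median of the list was 0.30 with the length and GC trends removed together and 0.33 without MEIS2 replicate 2.

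Of 14 other partner receptors of RXRs, Rxrg included, 9 were tested and 0 passed (0 in DESeq2 and in limma-voom), and 1 of the 9 had an unadjusted p under 0.05, near the 10.2% of all genes. Their median log2 fold change was -0.20 in edgeR's fit, which turned to 0.12 without MEIS2 replicate 2 and to 0.20 without MEIS2 replicate 1, and was -0.11 without control replicate 1 and -0.017 with library size alone. Nr1h2, an oxysterol receptor and the most abundant per length, stood at -0.47 (SE 0.34, adjusted p 0.61), or -0.16 without control replicate 1 and -0.88 without MEIS2 replicate 1. Nr4a2, an orphan receptor of midbrain dopamine neurons that pairs with RXRs, stood at 1.21 (SE 0.48, adjusted p 0.374), and at 0.70 without MEIS2 replicate 2. Without MEIS2 replicate 1 it stood at 1.56. DESeq2 gave no adjusted p for Nr4a2.

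Of 14 other genes known to respond to retinoic acid, 6 had enough counts to be tested. In edgeR's test 0 passed (0 in DESeq2 and in limma-voom), and 1 of the 6 had an unadjusted p under 0.05, against 10.2% of all genes. Nrip1 and Cyp26c1 were among the genes to which DESeq2 gave no adjusted p. The median log2 fold change of the 6 was 0.50. Nrip1, a ligand-dependent corepressor of RARs that is on the cofactor list too, measured 4.24 and 4.12 CPM in the control libraries, against 9.42 and 18.4 CPM in the MEIS2 line. Its log2 fold change was 1.73 (SE 0.45, adjusted p 0.256), or 1.03 with the trend removed and 1.13 without MEIS2 replicate 2. Without MEIS2 replicate 1 it was 2.12. Bhlhe40, a transcriptional repressor and the most abundant per length, measured 71.0 and 64.3 CPM in the control libraries, against 90.5 and 93.8 CPM in the MEIS2 line, with an estimate of 0.45 on the log2 scale (SE 0.30, adjusted p 0.598), or 0.28 with the trend removed.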

How the data were processed

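RNA of 4 HT22 libraries was measured by RNA-seq, with TRIzol extraction and oligo(dT) selection per the labels' protocols. The authors deposited whole-number read counts per gene, with gene symbols, positions and lengths per the file headers, and these counts were used as deposited. Per the submitters' processing notes, DESeq2 was among the tools, with no version. No source used here gives the aligner, counter, strand setting or genome build. Every row named a gene.

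Counts were tested in R 4.3.3 with edgeR 4.0.16 (filterByExpr by group, TMM, quasi-likelihood F test of the group term) over 12802 genes, with Benjamini-Hochberg adjustment and a threshold of 0.05. The script was tested on simulated data with larger changes than those of the genes described here and less spread between libraries. This checks the code and not the power for these genes. SE is the log2 fold change divided by the square root of F. GC content was taken, by gene ID, from the longest transcript in GENCODE M21 (98.9% of genes tested). Each library's trend was fitted with splines of 4 degrees of freedom on log2 length and on GC content and used as an offset. Copies were sought with BLAST+ 2.17.0. Alternatives were other scalings and filters, DESeq2 1.42.0, limma-voom (limma 3.58.1), a replicate block and leaving out each library. Libraries of 1 line differed beyond counting noise (chi-square over degrees of freedom 24.7 for controls and 61.3 for MEIS2), so none was treated as a second deposit of another. This does not show that they came from separate cultures.

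The 10 genes and all lists were chosen with earlier results of these data known. Named genes of a list are its most abundant tested gene per length and the one with the lowest p.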

Additional observations from a re-analysis of the deposited data

How the results depend on the processing

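For the 7 genes tested, 92 of 96 single-gene values kept their direction and stayed on the same side of the threshold. The 92 include the DESeq2 values of Rarb and Cyp26b1, which had no adjusted p and were taken as not passing. Rara turned from -0.13 to 0.0198 with library size alone, 0.0778 with the length and GC trend removed and 0.0735 with that trend removed and the replicate block. The cause was not tested. With the replicate number as a block, Rxrb stood at -0.55 (adjusted p 0.0258 in edgeR's test), so 1 of the 10 genes passed in place of 0. With block and trend removal together Rxrb stood at -0.32 (adjusted p 0.0849). The labels do not say what a number shares, and replicate 2 minus replicate 1 correlated at 0.529 between the lines across genes. The block took the calls over all genes from 1 to 2795, and to 2524 with the trend removed too. Other settings gave 271 (no filter), 74 (DESeq2), 0 (trend removed), 2411 (without MEIS2 replicate 1) and 4 calls (without MEIS2 replicate 2). Genes passing, with the block and with block and trend removal, numbered 2 and 3 for metabolism, 13 and 8 for cofactors, 1 and 2 for partner receptors and 2 and 1 for response genes, each against 0. Cofactors gave 3 with no filter and 2 in DESeq2, and response genes 1 with no filter. Over single libraries left out, these counts were higher without MEIS2 replicate 1 than without any other library. With either MEIS2 library left out, the spread comes from the controls alone. The cause of the higher counts was not tested. The median of the 7 genes ran from -0.41 to -0.12 over libraries left out. Rarb and Cyp26b1 had too few counts for the filter at 5 CPM. At 24 counts or fewer per library, depth limits Rarb, Cyp26b1, Crabp2 and Stra6.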

Other observations

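The dehydrogenases that make retinoic acid from retinaldehyde, looked up after the values of their list were seen, had 9 counts or fewer in every library. Aldh1a1 had 3 and 2 counts in the control libraries, against 4 and 3 in the MEIS2 line. Aldh1a3 had 3 and 0 counts in the control libraries, against 9 and 8 in the MEIS2 line, and Aldh1a2 had 0 in all 4. None of these had enough counts for the test. Rdh10, the dehydrogenase that makes retinaldehyde from retinol in embryos, was tested and measured 6.19 and 5.91 CPM in the control libraries, against 8.01 and 8.76 CPM in the MEIS2 line. Its difference was 0.47 on the log2 scale (SE 0.41, adjusted p 0.651 in edgeR's test). Of the 17 tested genes for retinoid metabolism and transport, 5 had an estimate above 0 and 12 below. Rdh11, Dhrs4 and Adh5 were among the lower ones, at -0.23, -0.42 and -0.42.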
